A study of Homo sapiens with 9 samples.

Results

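The genes described here make, store, move and export cholesterol. They are 32 of the 45754 genes in the deposited table, and were taken by name: 20 enzymes of sterol synthesis and 12 genes of sterol sensing, lysosomal export, storage, uptake, transfer and efflux. Their transcripts were read by RNA-seq in 3 libraries for each of 3 groups of H441, as the labels name the cells, a line from a human lung adenocarcinoma. Each group was kept for 24 h with the solvent DMSO at 0.1% (control), with the compound BSGL at 10 µM or with the compound RSGL at 10 µM. Whether the 3 libraries of a group came from separate cultures is not said in the labels, so p-values here reflect library-to-library spread that may be technical only. Of the 32 genes, 31 reached the level needed for testing, at least 1 FPKM (a fragment count divided by gene length and library size) in at least 3 libraries. The exception was ABCG1.

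The labels contradict each other on the line: beside H441 they carry a genotype tag, which reads A549 in the RSGL group and H460 in the other 2 groups. If that tag is right, an effect of RSGL and a difference of line cannot be told apart. Of 11 genes that mark the lung lineage of H441, 0 reached the level for testing, and the highest value was 1.24 FPKM, of SCGB1A1. By contrast 12 of 12 genes that mark KEAP1-mutant lines such as A549 and H460 reached it, with a median of 225.0 FPKM in control. Their summed level was 4328.4 to 4436.8 FPKM in control, 4039.5 to 4121.8 FPKM under BSGL and 2401.4 to 2478.6 FPKM under RSGL. Against control 2 of the 12 were called higher under RSGL and 10 lower, where 27.2% and 27.6% of all tested genes were. Much of the sum is ALDH1A1, with means of 1960.6 FPKM in control and 762.1 FPKM under RSGL, while TXNRD1 had 429.8 and 467.8 FPKM. Markers of hepatocytes, fibroblasts, endothelium and steroid-making cells reached the level in 1 of 6, 3 of 7, 0 of 5 and 0 of 5 cases, none of them above 5.30 FPKM. The libraries held 16720414 to 18738947 fragments in genes. On the first principal component the RSGL libraries lay at 30.3 to 31.2 and the other 6 between -16.5 and -14.2.

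Cholesterol is built from acetyl-CoA in a single chain of reactions. The mevalonate arm makes isoprenoid units, which also serve dolichol, ubiquinone and protein prenylation. Squalene formation commits them to sterols, and the last steps turn lanosterol into cholesterol. When sterol in the endoplasmic reticulum is low, the factor SREBP2 switches on genes of synthesis and uptake, and when oxysterols accumulate, the nuclear receptors LXR switch on efflux. Cholesterol taken up in lipoproteins is released in lysosomes, leaves them through NPC2 and NPC1, and is esterified for storage in droplets when in excess. In lung epithelium cholesterol is also a component of surfactant.

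In control cells the means of the 32 genes spanned from 0.318 to 80.1 FPKM. EBP, the sterol isomerase, was highest at 80.1 ± 4.01 FPKM (SD, n = 3), the 94.7th percentile of the tested genes, followed by FDPS, which makes farnesyl pyrophosphate, at 73.6 ± 1.18 FPKM. The control libraries of EBP (77.8, 77.9 and 84.8 FPKM) lay above those of FDPS (73.7, 72.4 and 74.7 FPKM), so these neighbours in the order were separate. The next were SCARB1 at 39.2 ± 2.01, NR1H2 at 38.8 ± 0.355, NPC2 at 37.0 ± 0.655 and LBR at 35.8 ± 0.892 FPKM. The range of SCARB1 over the control libraries, 36.9 to 40.4 FPKM, overlapped those of NR1H2 and NPC2. At the low end were ABCA1 at 3.11 ± 0.138, SC5D at 2.24 ± 0.0959, LSS at 1.49 ± 0.275 and ABCG1 at 0.318 ± 0.0699 FPKM. Both efflux pumps, ABCA1 and ABCG1, were thus near the bottom of the order.

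**Figure D1:**
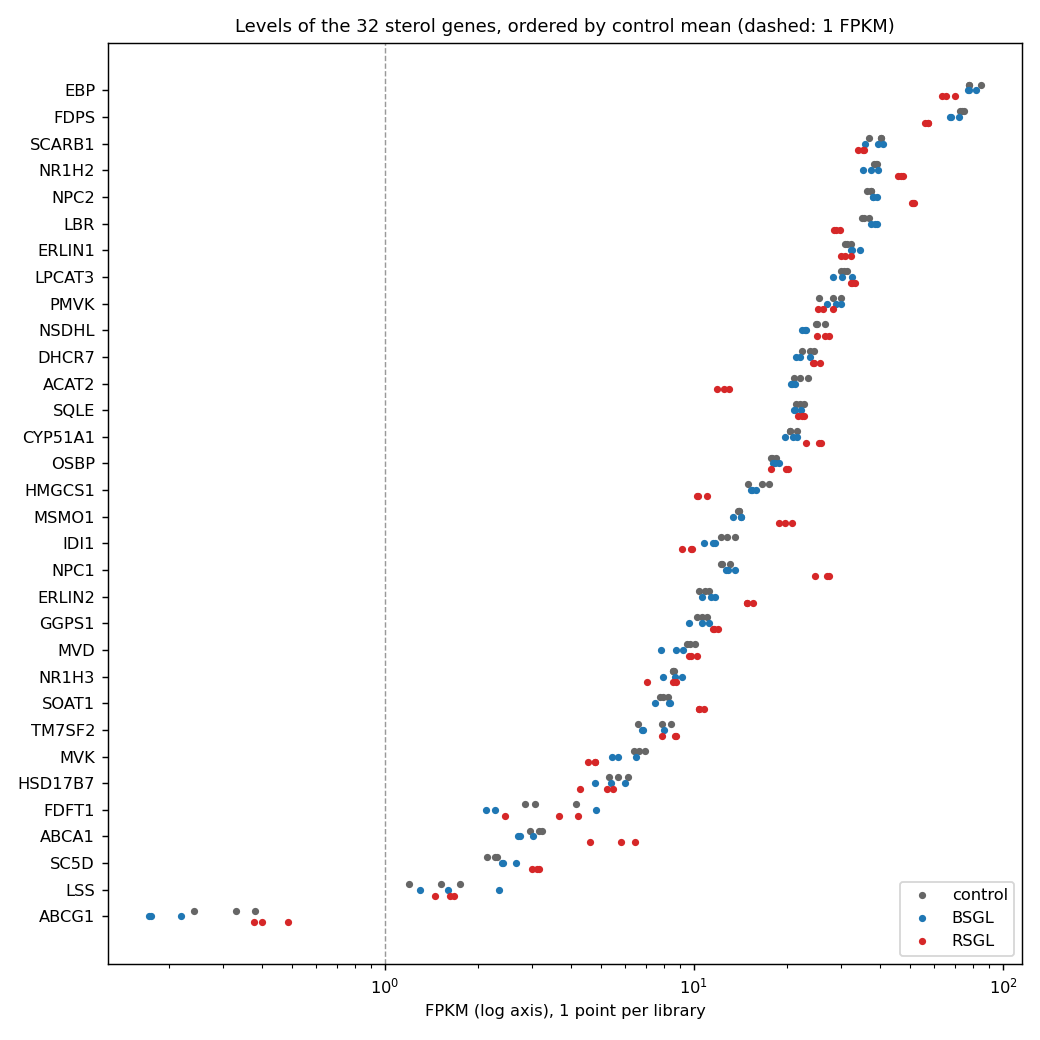
Levels of the 32 sterol genes in FPKM on a log axis, with 1 point per library (grey control, blue BSGL, red RSGL), ordered by the control mean, and a dashed line at 1 FPKM. EBP and FDPS stand at the top and ABCG1 below the line. The RSGL points lie clearly left of the others for ACAT2 and HMGCS1 and right of them for NPC1 and ABCA1.

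The rows of FDFT1 and LSS are uncertain, since the table places them on NW_018654717.1 and NT_187626.1, sequences outside the primary chromosomes. FDFT1, squalene synthase, was at 4.17, 2.84 and 3.06 FPKM in control, 2.12, 2.28 and 4.84 FPKM under BSGL and 4.21, 2.45 and 3.66 FPKM under RSGL. Its replicates differed by more than those of any other tested gene of the set, with an SE of 0.277 on the log2 scale, and the groups overlapped. LSS, lanosterol synthase, was at 1.75, 1.52 and 1.20 FPKM in control, 1.30, 1.60 and 2.35 FPKM under BSGL and 1.63, 1.45 and 1.68 FPKM under RSGL. Neither row was called in any comparison, and fragments of these genes mapped to other sequences may be missing from them.

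RSGL against control asks which of these genes differed in the RSGL libraries, by the compound or, if the genotype tag is right, by the line. The genes moved in both directions. Among the falls were 5 enzymes of the mevalonate arm and, of the steps from lanosterol to cholesterol, EBP and LBR. Among the rises were the lysosomal transporters NPC1 and NPC2, the pump ABCA1, the storage enzyme SOAT1 and 3 enzymes of the steps from lanosterol. NPC1 rose most, from 12.6 ± 0.497 to 26.3 ± 1.41 FPKM, and ACAT2 fell most, from 22.2 ± 1.18 to 12.5 ± 0.557 FPKM (SD, n = 3). By limma on log2(FPKM + 1) with Benjamini-Hochberg adjustment over 12775 genes and a threshold of 0.05, 17 of the 31 tested genes passed, 9 higher and 8 lower. Over all tested genes 54.8% passed, 27.2% higher and 27.6% lower, and 17 of 31 is 54.8% as well, so the share of changed genes in the set was that of the whole transcriptome. Libraries of RSGL and control did not overlap for 11 genes with higher and 8 with lower values under RSGL, against 61.2% of all tested genes, 30.4% higher and 30.8% lower. The median difference of the 31 genes was 0.043 on the log2 scale, against -0.001 for all tested genes. In bulk RNA a lower level in each cell and fewer cells with that level cannot be told apart.

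By role, 3 of the 20 synthesis enzymes rose and 7 fell, 50% in all against 54.8% of all tested genes, with a median difference of 0.012. Of the 11 tested genes of sensing, transport, storage and efflux 6 rose and 1 fell, 63.6% in all, with a median of 0.26. The difference between these roles was not tested.

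**Figure D2:**
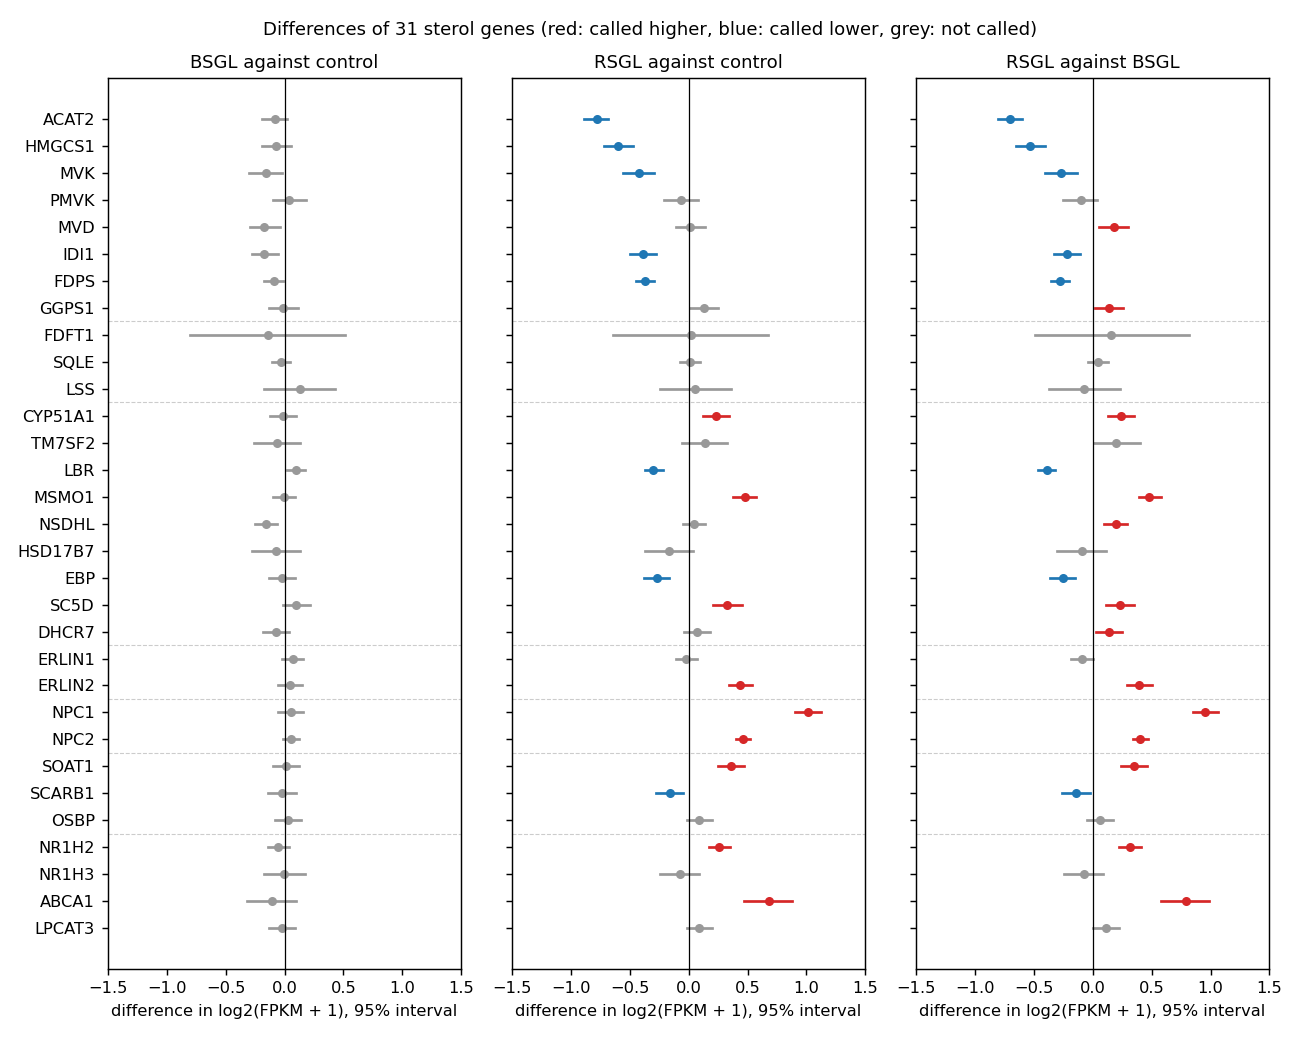
Differences in log2(FPKM + 1) with 95% intervals for the 31 tested sterol genes in 3 panels, BSGL against control, RSGL against control and RSGL against BSGL, from the fit to all 9 libraries. Genes are in pathway order with dashed lines between roles. Red points were called higher, blue points lower and grey points were not called. All points are grey in the BSGL panel, and the RSGL panels reach from -0.78 (ACAT2) to 1.01 (NPC1).

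The mevalonate arm fell at its entrance. ACAT2, the cytosolic thiolase that joins acetyl-CoA units, was at 22.1, 23.4 and 21.0 FPKM in control, 20.7, 20.6 and 21.3 FPKM under BSGL and 13.0, 11.9 and 12.5 FPKM under RSGL. Every RSGL library lay far below the other 6, a difference to control of -0.78 (95% interval -0.89 to -0.68, limma adjusted p = 5.07e-07). HMGCS1, which makes HMG-CoA from its product, was at 15.0, 17.5 and 16.6 FPKM in control, 15.9, 15.4 and 15.3 FPKM under BSGL and 11.0, 10.2 and 10.3 FPKM under RSGL. Here too the RSGL libraries were the lowest 3, by -0.60 against control (SE 0.0555, limma adjusted p = 1.21e-05).

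Further along the arm the falls were smaller. MVK, mevalonate kinase, was at 6.96, 6.62 and 6.41 FPKM in control, 5.69, 5.43 and 6.52 FPKM under BSGL and 4.56, 4.79 and 4.77 FPKM under RSGL (-0.42, limma adjusted p = 0.000241). Its BSGL libraries were spread between the other groups and reached into the control range. IDI1, the isomerase of isopentenyl pyrophosphate, was at 12.2, 13.6 and 12.8 FPKM in control, 11.5, 11.7 and 10.8 FPKM under BSGL and 9.78, 9.14 and 9.83 FPKM under RSGL (-0.39, limma adjusted p = 0.000105). The 3 groups of IDI1 did not overlap, with BSGL in the middle, but its BSGL difference to control was not called (-0.17, limma adjusted p = 0.47). FDPS was at 73.7, 72.4 and 74.7 FPKM in control, 67.8, 72.2 and 67.4 FPKM under BSGL and 57.2, 57.2 and 55.8 FPKM under RSGL (-0.37, SE 0.0337, limma adjusted p = 1e-05). Again no RSGL library reached the others.

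The other 3 enzymes of the arm did not pass. PMVK, phosphomevalonate kinase, had means of 27.8 FPKM in control and 26.5 FPKM under RSGL, with overlapping libraries and a difference of -0.064 (95% interval -0.21 to 0.08). MVD, the decarboxylase, had 9.78 and 9.87 FPKM (0.013, interval -0.11 to 0.14). GGPS1, which makes geranylgeranyl pyrophosphate for prenylation, had 10.6 and 11.7 FPKM, with every RSGL library above the control (0.13, interval 0.01 to 0.25, limma adjusted p = 0.0639). Fitted to the compared groups alone GGPS1 was called (limma adjusted p = 0.037, with 0.037 to 0.19 over all alternatives). In all, 0 of the 8 genes of the arm were called higher and 5 lower, against 27.2% and 27.6% of all tested genes, with a median of -0.38.

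Promoter sequences are shown for 2 genes of this arm that fell, HMGCS1 and FDPS, and for MSMO1, an enzyme of the later steps that rose, so that the same elements can be seen in genes that moved in opposite directions. Each is the stretch of 250 bases before the first listed start of transcription in the RefSeq table for GRCh38.p14, 5′ to 3′ on the strand of the gene. Capitals mark matches, on either strand, to the CCAAT box (CCAAT, bound by NF-Y, a known partner of SREBP2) and to the GC box (GGGCGG, bound by Sp1). HMGCS1 lies at chr5:43313413-43313662 on the minus strand, FDPS at chr1:155308616-155308865 on the plus strand and MSMO1 at chr4:165327419-165327668 on the plus strand. The RefSeq starts differ from the ends of the gene spans in the deposited table, so that 100 bases of the HMGCS1 window, 118 of the FDPS window and 3 of the MSMO1 window lie inside those spans.
HMGCS1: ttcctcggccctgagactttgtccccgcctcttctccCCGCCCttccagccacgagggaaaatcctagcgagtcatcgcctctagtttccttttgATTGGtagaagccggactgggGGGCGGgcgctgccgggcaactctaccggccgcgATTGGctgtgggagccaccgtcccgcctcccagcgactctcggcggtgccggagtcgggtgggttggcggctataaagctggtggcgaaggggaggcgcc
FDPS: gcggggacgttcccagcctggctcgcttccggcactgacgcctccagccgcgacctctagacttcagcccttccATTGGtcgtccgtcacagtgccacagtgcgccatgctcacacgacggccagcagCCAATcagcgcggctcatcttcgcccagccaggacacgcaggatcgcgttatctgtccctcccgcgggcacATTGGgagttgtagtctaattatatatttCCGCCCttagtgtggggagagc
MSMO1: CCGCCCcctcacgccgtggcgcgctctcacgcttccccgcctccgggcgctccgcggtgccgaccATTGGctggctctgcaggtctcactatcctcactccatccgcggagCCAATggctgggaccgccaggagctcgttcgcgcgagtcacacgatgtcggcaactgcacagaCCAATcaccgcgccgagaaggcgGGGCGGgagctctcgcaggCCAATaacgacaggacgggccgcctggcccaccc
The CCAAT box matched 2 times in HMGCS1, 3 times in FDPS and 4 times in MSMO1, which has the most of the genes that rose. Of all called genes with a window, 4 of the 8 that rose and 4 of the 6 that fell held at least 1 CCAAT box, with 0 to 4 and 0 to 5 boxes per gene. Of the 11 genes with a window that were not called, 8 held at least 1, with 0 to 5 boxes per gene.

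A window was found for 25 of the 32 genes. Of these 16 (64%) held a CCAAT box, against 33% of the windows of all 27305 genes in that table, and 21 (84%) held a GC box, against 42.3%. That background takes every gene with a window, whether or not it was expressed here. The shares among tested genes alone were not computed, so these differences may not be particular to sterol genes. A sterol regulatory element with the letters TCACNCCAC, the SREBP2 site, was matched in 0 of the 25 windows and in 0.875% of all. This says only that these letters are not in these windows. Both strands were searched, no match to one motif shared bases with a match to another in these windows, and a match is a description of sequence and not a bound site.

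Between squalene and lanosterol none of the 3 genes was called, where 54.8% of all tested genes were called between RSGL and control. SQLE, squalene epoxidase, a known control point of the pathway, was at 22.7, 21.4 and 22.0 FPKM in control, 22.2, 21.3 and 21.0 FPKM under BSGL and 22.7, 21.7 and 22.3 FPKM under RSGL. The groups overlapped closely, and the difference between RSGL and control was 0.011 (95% interval -0.07 to 0.09). FDFT1 and LSS, with wider intervals, are described above.

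The steps from lanosterol to cholesterol went both ways, with 3 of 9 genes higher and 2 lower. These 5 are 55.6%, near the 54.8% of all tested genes. MSMO1, the methyl sterol oxidase, was at 13.9, 14.0 and 14.0 FPKM in control, 13.4, 14.2 and 14.2 FPKM under BSGL and 19.7, 18.9 and 20.8 FPKM under RSGL (0.48, SE 0.0422, limma adjusted p = 8.26e-06). All 6 libraries of control and BSGL lay between 13.4 and 14.2 FPKM, below every RSGL library. CYP51A1, the lanosterol demethylase, was at 20.5, 21.6 and 20.5 FPKM in control, 21.5, 20.9 and 19.7 FPKM under BSGL and 25.3, 25.7 and 23.0 FPKM under RSGL (0.23, limma adjusted p = 0.00321). SC5D, the sterol desaturase, was at 2.14, 2.31 and 2.28 FPKM in control, 2.65, 2.39 and 2.41 FPKM under BSGL and 2.99, 3.16 and 3.10 FPKM under RSGL (0.33, limma adjusted p = 0.000505). For SC5D the 3 groups did not overlap, and BSGL again lay between the others.

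The enzymes of these steps that fell were EBP and LBR. EBP was at 77.8, 77.9 and 84.8 FPKM in control, 77.2, 77.7 and 82.0 FPKM under BSGL and 65.2, 69.8 and 63.3 FPKM under RSGL (-0.27, limma adjusted p = 0.000817). LBR is a sterol reductase that also anchors lamins at the nuclear envelope. It was at 35.0, 35.6 and 36.8 FPKM in control, 39.0, 38.6 and 37.5 FPKM under BSGL and 29.6, 28.9 and 28.5 FPKM under RSGL (-0.30, SE 0.0324, limma adjusted p = 3.73e-05). LBR thus fell while TM7SF2, a reductase of the same step, had means of 7.63 FPKM in control and 8.45 FPKM under RSGL with overlapping libraries and was not called (0.14, interval -0.06 to 0.33). The other 3 genes were not called either: NSDHL, which removes a methyl group with MSMO1, had 25.5 and 26.4 FPKM, HSD17B7, a ketoreductase, 5.70 and 4.99 FPKM, and DHCR7, the final reductase, 23.6 and 24.8 FPKM.

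The erlins ERLIN1 and ERLIN2 form a cholesterol-binding complex of the endoplasmic reticulum that restrains SREBP and takes part in protein degradation there. ERLIN2 was at 10.4, 10.9 and 11.2 FPKM in control, 10.6, 11.7 and 11.4 FPKM under BSGL and 14.8, 15.5 and 14.9 FPKM under RSGL, a rise of 0.44 (SE 0.046, limma adjusted p = 2.74e-05). Its RSGL libraries stood apart from the other 6. ERLIN1, the partner with the higher transcript level, was at 30.8, 32.2 and 31.2 FPKM in control and 32.2, 29.9 and 30.9 FPKM under RSGL. Its difference was -0.018 (95% interval -0.11 to 0.07). The ERLIN1 groups overlapped.

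Both genes of lysosomal export rose, where 27.2% of all tested genes were called higher. NPC1, the membrane transporter that is lost in Niemann-Pick disease type C, was at 12.2, 13.1 and 12.3 FPKM in control, 12.9, 13.6 and 12.7 FPKM under BSGL and 27.3, 26.9 and 24.7 FPKM under RSGL. The lowest RSGL library was well above the highest of the others, and the difference of 1.01 (95% interval 0.90 to 1.12, limma adjusted p = 1.22e-07) was the largest of the set. NPC2, the soluble protein that hands cholesterol to NPC1, was at 37.4, 37.3 and 36.2 FPKM in control, 39.0, 38.1 and 38.1 FPKM under BSGL and 51.5, 50.9 and 51.1 FPKM under RSGL (0.46, SE 0.0281, limma adjusted p = 6.24e-07). The lysosomal glycoprotein CD68, on a list of macrophage markers, rose with them from 40.2 to 118.8 FPKM. That list of 9 genes had 2 that could be tested, and its summed level was 42.6 to 43.0 FPKM in control, 47.1 to 48.2 FPKM under BSGL and 116.8 to 121.8 FPKM under RSGL. The other tested gene of the list, CD14, fell from 2.11 to 0.346 FPKM. Of the 7 that could not be tested, CSF1R had means of 0.0814 FPKM in control and 0.204 FPKM under RSGL, ITGAM of 0.342 and 0.24 FPKM, and PTPRC, CD163, MRC1, MARCO and MSR1 stayed at or below 0.0633 FPKM in every library. The part of CD68 and of other lysosomal genes in the rise of NPC1 and NPC2 was not tested.

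**Figure D3:**
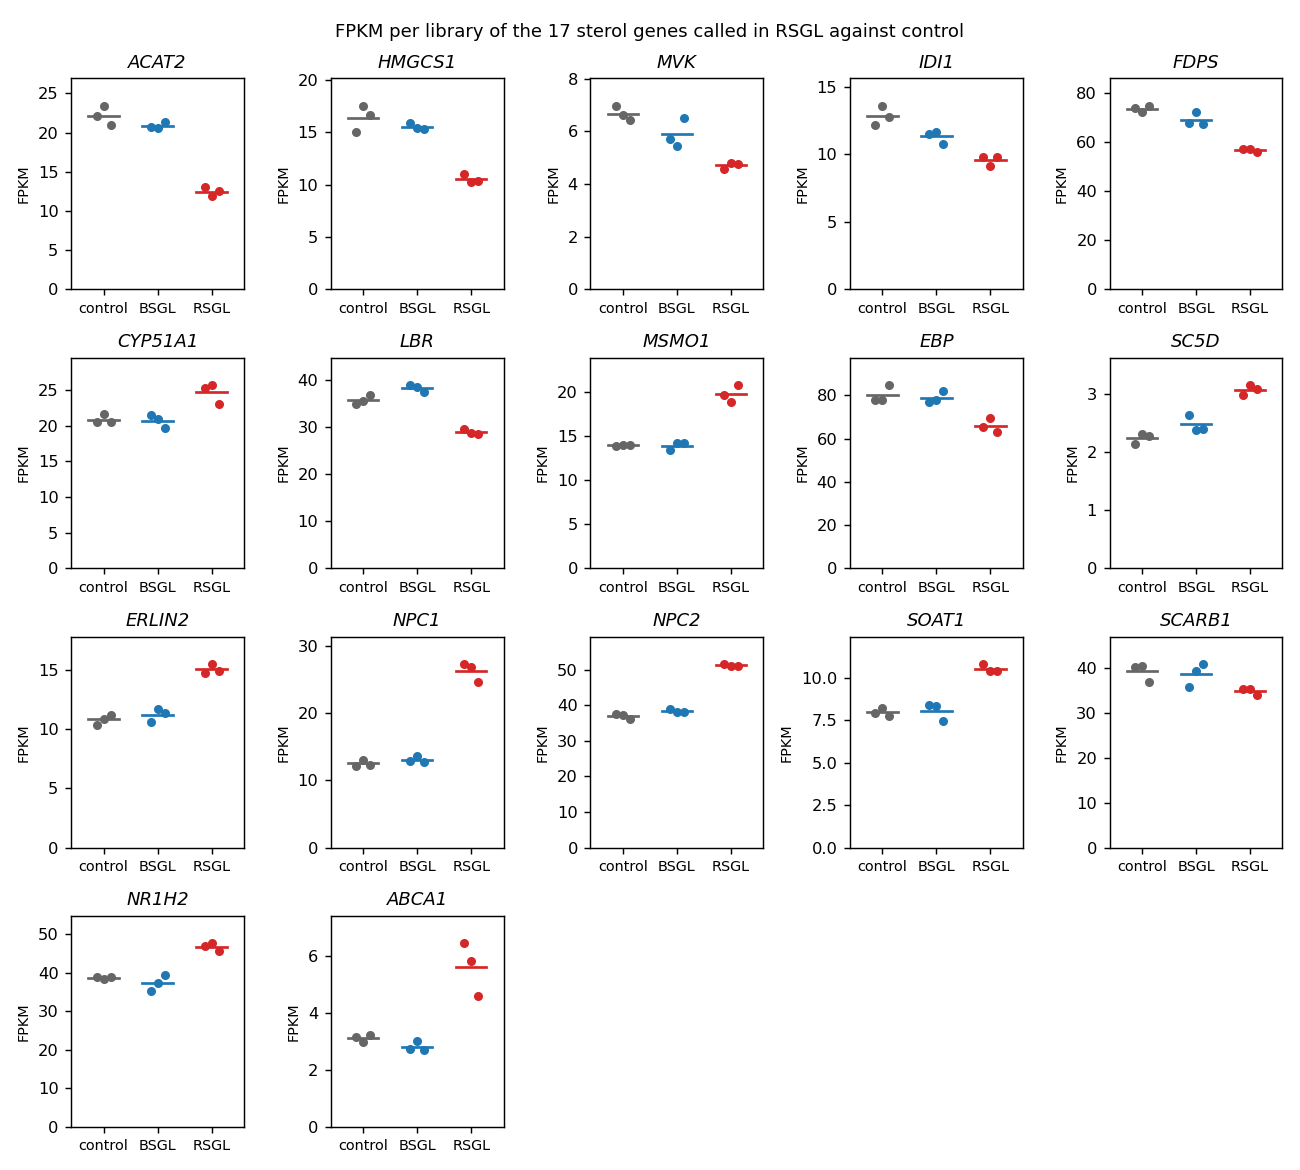
FPKM per library of the 17 sterol genes called between RSGL and control, with 1 panel per gene and a linear axis from 0. Points are libraries and bars group means. ACAT2, HMGCS1 and FDPS are lowest under RSGL, NPC1 reaches 24.7 to 27.3 FPKM there against 12.2 to 13.1 FPKM in control, and the 3 RSGL libraries of ABCA1 lie between 4.60 and 6.43 FPKM.

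Among genes of storage, uptake and transfer 1 of 3 rose and 1 fell, where 27.2% of all tested genes were called higher and 27.6% lower. SOAT1, which esterifies cholesterol for lipid droplets, was at 7.94, 8.25 and 7.78 FPKM in control, 8.38, 8.33 and 7.46 FPKM under BSGL and 10.8, 10.4 and 10.4 FPKM under RSGL (0.36, limma adjusted p = 0.000163). SCARB1, the receptor for high-density lipoprotein, was at 40.3, 40.4 and 36.9 FPKM in control, 35.8, 39.3 and 40.8 FPKM under BSGL and 35.2, 35.4 and 33.9 FPKM under RSGL. Its difference of -0.16 (limma adjusted p = 0.024) was the smallest called difference of the set, and the call was lost in 5 of 16 alternatives. These were no filter (adjusted p = 0.0672), quantile normalization (adjusted p = 0.0901) and leaving out control replicate 1 (adjusted p = 0.0783), control replicate 2 (adjusted p = 0.0801) or RSGL replicate 3 (adjusted p = 0.0748). Over all alternatives the limma adjusted p of SCARB1 ran from 0.00553 to 0.0901. OSBP, which exchanges cholesterol between the endoplasmic reticulum and the Golgi, was at 18.0 FPKM in control and 19.3 FPKM under RSGL, overlapped and was not called (0.09, interval -0.02 to 0.20). Without RSGL replicate 3 OSBP was called (0.14, limma adjusted p = 0.0118, with 0.0118 to 0.46 over all alternatives).

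Of the LXR receptors, NR1H2 (LXR beta, found in most tissues) rose and NR1H3 (LXR alpha) was not called. NR1H2 was at 38.9, 38.3 and 39.0 FPKM in control, 35.3, 37.4 and 39.4 FPKM under BSGL and 46.9, 47.6 and 45.7 FPKM under RSGL (0.26, limma adjusted p = 0.000373). NR1H3 was at 8.59, 8.65 and 8.53 FPKM in control and 7.05, 8.78 and 8.58 FPKM under RSGL, where 1 library was low and the other 2 were near the control (-0.076, interval -0.24 to 0.09).

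ABCA1, the pump that loads cholesterol onto apolipoprotein A-I and a known LXR target, was at 3.16, 2.96 and 3.23 FPKM in control, 2.74, 3.01 and 2.69 FPKM under BSGL and 6.43, 5.81 and 4.60 FPKM under RSGL. All RSGL libraries were above the other 6, with the third the lowest of them. The ratio of the RSGL mean to the control mean was 1.80 in FPKM, and the difference in log2(FPKM + 1), which understates changes at low levels, was 0.68 (95% interval 0.47 to 0.88, limma adjusted p = 0.000171). LPCAT3, an acyltransferase of membrane phospholipid that LXR also induces, had means of 30.6 FPKM in control and 32.6 FPKM under RSGL and did not overlap, but was not called (0.09, interval -0.017 to 0.20).

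ABCG1, the pump that passes cholesterol to high-density lipoprotein, was too low for testing. It was at 0.331, 0.380 and 0.242 FPKM in control, 0.175, 0.173 and 0.219 FPKM under BSGL and 0.377, 0.402 and 0.485 FPKM under RSGL. These values rest on 69, 81 and 50 fragments in control, 38, 35 and 46 under BSGL and 81, 78 and 96 under RSGL. The BSGL libraries were the lowest 3, and RSGL and control overlapped by 1 library. With no filter on low values, the limma adjusted p for ABCG1 was 0.0177 between the compounds, 0.902 for BSGL against control and 0.282 for RSGL against control.

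The promoter windows of NPC1 and ABCA1, the genes with the largest rises, are shown with GC boxes in capitals. In ABCA1 the capitals also mark a loose match to a direct repeat with 4 bases between, the type of element that LXR binds. It was matched on the opposite strand from 69 to 54 bases before the start. NPC1 lies at chr18:23586507-23586756 and ABCA1 at chr9:104928156-104928405 on GRCh38.p14, both on the minus strand. Of these windows 111 bases in NPC1 and 91 in ABCA1, the repeat among them, lie inside the gene spans of the deposited table, whose starts differ from those of RefSeq.
NPC1: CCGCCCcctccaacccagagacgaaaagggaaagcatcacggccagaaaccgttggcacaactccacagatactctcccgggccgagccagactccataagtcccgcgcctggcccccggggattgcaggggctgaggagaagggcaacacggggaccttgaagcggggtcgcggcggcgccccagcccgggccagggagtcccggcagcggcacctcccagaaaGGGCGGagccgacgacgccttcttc
ABCA1: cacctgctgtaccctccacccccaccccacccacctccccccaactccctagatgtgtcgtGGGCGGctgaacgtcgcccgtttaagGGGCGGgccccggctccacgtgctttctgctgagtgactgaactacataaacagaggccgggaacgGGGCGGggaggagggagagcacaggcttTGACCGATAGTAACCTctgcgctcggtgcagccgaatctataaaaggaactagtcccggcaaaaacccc
ABCA1 was the 1 gene of the 25 with a window that held this repeat, which occurs in 0.0879% of the windows of all genes. NPC1 had 2 GC boxes and no match to the CCAAT box or the repeat in this window.

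The positions of the genes with the largest differences are those of the deposited table, whose sequence accessions are those of GRCh38. NPC1 (gene ID 4864) lies on chromosome 18 at 23506184 to 23586617, ABCA1 (19) on chromosome 9 at 104781002 to 104928246, ACAT2 (39) on chromosome 6 at 159761957 to 159779112 and HMGCS1 (3157) on chromosome 5 at 43287470 to 43313512. MSMO1 (6307) lies on chromosome 4 at 165327666 to 165343164 and NPC2 (10577) on chromosome 14 at 74479940 to 74493475. Values are totals over each gene, so exons are not told apart.

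Some of the genes overlap a gene on the opposite strand, and no source used here states whether counting used strand, so part of their fragments may belong to the partner. ACAT2 shares 615 bases with TCP1, a chaperonin subunit, and 573 bases with SOD2. TCP1 was at 115.0 FPKM in control and 116.1 FPKM under RSGL, and SOD2 at 24.5 and 27.3 FPKM. Their part in the ACAT2 values was not tested. NPC1 shares 25624 bases of its span with C18orf8, at 8.32 FPKM in control and 10.0 FPKM under RSGL. LPCAT3 shares 21244 bases with EMG1, at 44.6 and 48.3 FPKM. MVK overlaps MMAB by 269 bases, with 5.05 and 4.31 FPKM, and NR1H3 overlaps ACP2 by 548 bases, with 17.9 and 13.3 FPKM.

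BSGL against control asks the same of the other compound, and here none of the sterol genes was called. Limma called 0 of the 31 tested genes higher and 0 lower, where 0.0861% of all tested genes were called, 0.047% higher and 0.0391% lower. Limma-voom on recovered fragments also called 0 of the 31, against 0.243% of all. At an unadjusted p under 0.05 there were 6 of the 31, against 6.71% of all tested genes. These 6 were MVK, MVD, IDI1, FDPS and NSDHL, with lower means under BSGL, and LBR, with a higher mean. The median difference was -0.02 over the 31 genes and -0.068 over the 20 synthesis enzymes, against 0.005 for all tested genes.

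The libraries of BSGL and control did not overlap for 7 of the 31 genes, while 12.8% of all tested genes did not overlap, 7.16% higher and 5.63% lower. Higher under BSGL were LBR, SC5D and NPC2, and lower were MVD, IDI1, FDPS and NSDHL. NSDHL was at 24.9, 25.1 and 26.6 FPKM in control and 22.9, 23.1 and 22.4 FPKM under BSGL, and had the lowest adjusted p of the set (-0.16, 95% interval -0.25 to -0.06, limma adjusted p = 0.374). MVD was at 9.71, 9.50 and 10.1 FPKM in control and 7.84, 9.24 and 8.78 FPKM under BSGL (-0.17, interval -0.29 to -0.04, limma adjusted p = 0.597). For ACAT2 and NPC1, which moved most under RSGL, the BSGL differences to control were -0.082 (interval -0.19 to 0.02) and 0.056 (interval -0.05 to 0.16).

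RSGL against BSGL sets the groups of both compounds side by side, at the same 10 µM and 24 h. As the genotype tag also differs between them, compound and line cannot be told apart here either. Their structures were not used here. Of the 31 genes 13 were higher under RSGL and 8 lower, where 54% of all tested genes were called, 26.5% higher and 27.5% lower. Libraries of the compounds did not overlap for 13 genes with higher and 8 with lower values under RSGL, against 61.2% of all, 29.8% higher and 31.4% lower. The RSGL libraries are the same as in the comparison with control, so both comparisons share their errors. The largest differences were those of NPC1 (0.95, SE 0.0487, limma adjusted p = 2e-07), ABCA1 (0.79, SE 0.0927, limma adjusted p = 6.58e-05), ACAT2 (-0.70, SE 0.0465, limma adjusted p = 1.23e-06) and HMGCS1 (-0.53, SE 0.0555, limma adjusted p = 3.15e-05). In FPKM the ratio of RSGL to BSGL was 2.01 for NPC1 and 2.0 for ABCA1. MSMO1 differed by 0.48, NPC2 by 0.40, ERLIN2 by 0.39, LBR by -0.39, SOAT1 by 0.35 and NR1H2 by 0.32.

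Between the compounds 4 more enzymes were called than between RSGL and control: MVD, GGPS1, NSDHL and DHCR7, each higher under RSGL. NSDHL had means of 22.8 ± 0.326 FPKM under BSGL and 26.4 ± 1.25 FPKM under RSGL (SD, n = 3), a difference of 0.20 (limma adjusted p = 0.0028). MVD had 8.62 and 9.87 FPKM (0.18, limma adjusted p = 0.0218), GGPS1 10.5 and 11.7 FPKM (0.14, limma adjusted p = 0.0448) and DHCR7 22.4 and 24.8 FPKM (0.14, limma adjusted p = 0.0354). The calls of MVD, GGPS1, DHCR7 and SCARB1 (-0.14, limma adjusted p = 0.0452) were each lost in some alternatives, with highest adjusted p-values of 0.0723, 0.158, 0.127 and 0.194, whereas the other 17 calls held in all those that tested them. Among single libraries, the MVD call was lost without BSGL replicate 1 (adjusted p = 0.0719) or RSGL replicate 2 (0.0723), and the DHCR7 call without BSGL replicate 1 (0.0936), BSGL replicate 2 (0.127), RSGL replicate 2 (0.115) or RSGL replicate 3 (0.0591). The GGPS1 and SCARB1 calls were lost without any of several libraries, with GGPS1 at 0.158 and SCARB1 at 0.159 without BSGL replicate 3. For SQLE the compounds differed by 0.044 (95% interval -0.04 to 0.13), for PMVK by -0.10 (interval -0.25 to 0.04) and for ERLIN1 by -0.087 (interval -0.18 to 0.0027), none of which passed.

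The other genes of sterol handling, from a list of 74 of which 56 were tested, give the surroundings of this set. Under RSGL against control 21 were called higher and 14 lower, 62.5% of those tested against 54.8% of all genes. VLDLR, a lipoprotein receptor, rose from 3.84, 3.82 and 3.57 FPKM to 11.3, 11.1 and 10.9 FPKM (1.35, SE 0.0468). INSIG1, which retains the SREBP complex in the endoplasmic reticulum, was at 11.9, 13.5 and 13.0 FPKM in control, 9.27, 9.43 and 9.69 FPKM under BSGL and 33.7, 33.3 and 33.6 FPKM under RSGL, so that the groups did not overlap, with RSGL above and BSGL below the control. Its difference to control was 1.32 for RSGL and -0.40 for BSGL, the 1 gene of this list called for BSGL (limma adjusted p = 0.0286). The BSGL call of INSIG1 was lost in 10 of 16 alternatives, among them leaving out control replicate 2 (adjusted p = 0.0872), control replicate 3 (0.0899) or any BSGL library (0.127, 0.132 and 0.0784), while the difference stayed between -0.45 and -0.36. OSBP2, a relative of OSBP, rose by 1.25 and INSIG2 by 0.58, with ratios to control of 3.09 and 1.64 in FPKM. Among the falls were those of CH25H, an oxysterol-making hydroxylase (-0.78, on 13 to 55 fragments), TMEM97, the sigma-2 receptor (-0.68), and GRAMD1B, a carrier of cholesterol from the plasma membrane (-0.59). With a pseudocount of 0.1 FPKM in place of 1, the difference of CH25H was -1.41, and with limma-voom -1.54. Between the compounds, which share the RSGL libraries with the comparison above, 21 genes of the list were higher and 14 lower. These are 62.5% of those tested, where 54% of all tested genes were called, 26.5% higher and 27.5% lower. Among the 21 were INSIG1 (1.72), VLDLR (1.42) and OSBP2 (1.19), and among the 14 were CH25H (-0.71), TMEM97 (-0.69) and GRAMD1B (-0.53).

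SREBF2, which encodes SREBP2 itself, was at 12.6, 12.6 and 12.5 FPKM in control, 12.0, 11.9 and 12.1 FPKM under BSGL and 15.1, 14.7 and 13.7 FPKM under RSGL. The RSGL libraries were the highest 3, by 0.19 against control (SE 0.0401, limma adjusted p = 0.0028). The BSGL libraries lay just below the control without a call (-0.065, 95% interval -0.15 to 0.025, limma adjusted p = 0.849).

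**Figure D4:**
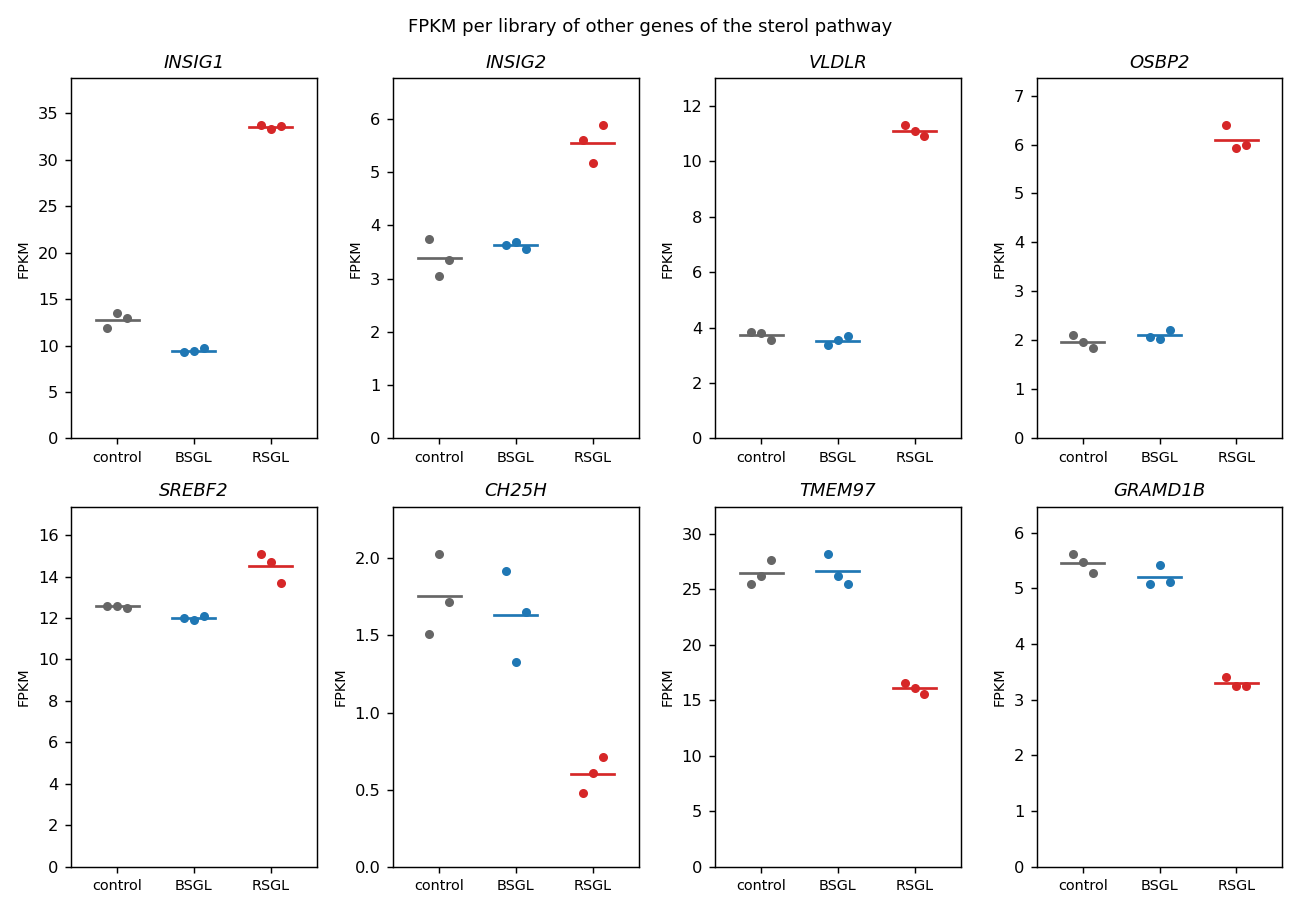
FPKM per library of 8 other genes of sterol handling, with 1 panel per gene and a linear axis from 0. Points are libraries and bars group means. INSIG1 lies at 33.3 to 33.7 FPKM under RSGL and at 9.27 to 9.69 FPKM under BSGL, on either side of the control at 11.9 to 13.5 FPKM, while CH25H, TMEM97 and GRAMD1B are lowest under RSGL.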

How the data were processed

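Per the labels' protocols, total RNA of the H441-labelled cells was taken up in TRIzol and made into 9 libraries with a NEBNext Ultra kit. The submitters' processing notes name DESeq2 1.16.1, HISAT2 2.0.5 and featureCounts 1.5.0-p3, each with no role. Per the file headers, the deposited values are FPKM computed by the authors, with gene lengths. FPKM times length lay within 0.01 of whole multiples of a step for 100.0% of values under 300 fragments, which gave fragments for limma-voom. They were 92.3 to 93.9% of the totals used for scaling.

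The 12775 genes that reached 1 FPKM in 3 or more libraries were fitted as log2(FPKM + 1) with limma 3.58.1 (R 4.3.3), using 1 term per group, an intensity trend and robust empirical Bayes. P-values were adjusted by Benjamini-Hochberg over all of these genes and called under 0.05. The steps were run on simulated counts in which fewer genes changed than were called under RSGL, all of them well expressed. That run gives no error rate for the calls here. Errors are SE of the model or SD over n = 3 libraries.

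The genes, their roles and the lists were chosen with earlier results of these data known. All 32 genes are named. Of the other pathway genes the 4 largest called rises and falls per comparison are named, with INSIG1 and SREBF2, and some genes that this rule takes are not reported here. Alternatives changed the pseudocount, filter, scaling, model options, test and libraries included. Promoter windows are from RefSeq, GRCh38.p14.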

Additional observations from a re-analysis of the deposited data

How the results depend on the processing

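Of the 17 sterol genes called between RSGL and control, 16 kept call and direction in all alternatives that tested them, and SCARB1 lost its call in some. The counts ran from 7 to 10 higher and 7 to 8 lower. Between the compounds 17 of 21 calls were kept, with 10 to 14 higher and 7 to 8 lower. A filter of 5 FPKM left ABCA1 and SC5D untested. Under BSGL the number of sterol genes called stayed 0, while genes called among all tested fell from 11 to 0 with no filter, a common FPKM sum, the replicate block or no trend and robust options, to 2 with only the compared groups, and to between 0 and 2 on leaving out 1 library, and rose to 31 with limma-voom. The cause was not tested. Depth limits ABCG1, at 35 to 96 fragments per library, and CH25H, at 13 to 55.

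Deviations of same-numbered replicates from their group means correlated with r from -0.212 to 0.121 over 9 pairs. For libraries with other numbers r ran from -0.108 to 0.154 over 18 pairs. The labels state no pairing, and deviations from means of 3 libraries cannot exclude one. With the replicate block RSGL against control had 9 higher and 8 lower sterol genes, RSGL against BSGL 12 and 7, and BSGL against control 0.

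Signs turned only for differences that were not called. For BSGL against control, leaving out 1 library gave ranges of -0.022 to 0.091 for PMVK, -0.061 to 0.041 for GGPS1, -0.43 to 0.018 for FDFT1, -0.022 to 0.25 for LSS, -0.037 to 0.024 for CYP51A1, -0.16 to 0.00086 for TM7SF2, -0.018 to 0.021 for MSMO1, -0.047 to 0.02 for EBP, -0.018 to 0.057 for SOAT1, -0.065 to 0.03 for SCARB1, -0.042 to 0.048 for NR1H3 and -0.069 to 0.031 for LPCAT3. SOAT1 was at -0.017 with a common FPKM sum and -0.001 with limma-voom. For RSGL against control the ranges were -0.0083 to 0.035 for MVD, -0.11 to 0.19 for FDFT1, -0.0083 to 0.032 for SQLE, -0.027 to 0.13 for LSS, -0.044 to 0.007 for ERLIN1 and -0.13 to 0.013 for NR1H3. A common FPKM sum gave -0.022 for MVD, -0.012 for FDFT1 and -0.025 for SQLE, and quantile normalization -0.015 for FDFT1 and 0.011 for ERLIN1. For RSGL against BSGL the ranges were -0.0014 to 0.45 for FDFT1, -0.19 to 0.08 for LSS and -0.13 to 0.014 for NR1H3. The cause of these changes was not tested.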
